A study of Mus musculus with 12 samples.

Results

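The genes described here encode the subunits of the constitutive proteasome together with its activators, its inhibitor and its assembly chaperones. They were taken as every gene probe whose name on the array began with Psma, Psmb, Psmc, Psmd, Psme, Psmf or Psmg and a digit, leaving out the immunoproteasome subunits Psmb8, Psmb9 and Psmb10. This gave 71 probes for 46 genes, of 30111 genes on the array. Tests needed a signal well above background in 6 or more of the 12 mice, which 63 of these probes and 44 of these genes had, of 16448 genes tested in all. The 2 genes without such a probe were Psma8, which encodes an alpha subunit known from testis, and Psmb11, which encodes a catalytic subunit known from thymus. Psmc3ip also carries the name pattern but encodes a partner of recombinases in meiosis and is no proteasome subunit.

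RNA came from the quadriceps muscle of C57BL/6J male mice aged 13 weeks. In the exercised group 6 mice ran on a motorized treadmill over 4 weeks and their muscle was taken 3 hours after the last bout, and the other group held 6 sedentary mice. Every mouse had its own one-colour array, named below by the set and animal number of its title, so that s2m3 is animal 3 of set 2. The labels do not say what the sets are. Because no mice trained without a recent bout, the last run and the weeks of training cannot be told apart. Of the 3 slides, slide 1 held 1 exercised and 3 sedentary mice, slide 2 held 3 and 1, and slide 3 held 2 of each. Levels are log2 of the processed signal minus the 75th percentile of the same array, so that 0 is the 75th percentile. That percentile lay between 179 and 230.1 units of intensity on exercised arrays and between 167 and 237 on sedentary arrays, and 22420 to 24863 probes were above background on exercised arrays, against 21728 to 25246 on sedentary arrays. All 15 listed marker genes of muscle fibres were above background on all 12 arrays.

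The proteasome degrades proteins that carry chains of ubiquitin. Its core particle is a barrel in which rings of alpha subunits gate the entry and rings of beta subunits hold the active sites. The regulatory particle caps the barrel, recognises ubiquitin, and unfolds the substrate with a ring of ATPases. In skeletal muscle the pathway is known for its part in wasting, when subunit genes and the muscle ubiquitin ligases Trim63 and Fbxo32 are induced together, and for the turnover of damaged contractile proteins. When proteasomes are short of capacity, the transcription factor NRF1, the product of Nfe2l1, raises the subunit genes together through antioxidant response elements, which it binds with a small Maf partner.

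No proteasome gene passed the test between exercised and sedentary muscle. Of the 44 genes tested, 0 were higher and 0 were lower (limma, Benjamini-Hochberg adjusted p below 0.05). Among all genes tested 1.82% were called higher and 1.85% lower, and 0 of 44 lies near both shares. The smallest adjusted p among the 44 was 0.129, for Psmb7. At an unadjusted p below 0.05 there were 3 of the 44, Psmb7, Psmf1 and Psme4, all of them lower in exercised muscle, against 16.2% of all genes in either direction. The groups overlapped in all 44. They did not overlap in 3.02% of all genes, a share that 0 of 44 also lies near. The median log2 difference, exercised minus sedentary, was -0.013 over the 44 genes and -0.028 over all genes tested. Single values ran from -0.30 for Psmd9 to 0.20 for Psme3, with 15 genes above 0 and 29 below. This balance turned when the slides entered the fit as blocks: the median was then 0.032, against -0.016 over all genes, and 13 genes lay below 0. Levels in whole muscle do not tell fewer cells of a type from less RNA per cell.

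The differences were also small and closely bounded. The median size of the log2 difference was 0.055 over the proteasome genes and 0.11 over all genes, and the median residual SD was 0.129 against 0.187. The 95% interval of the difference lay within 1.25-fold in either direction for 37 of the 44 genes, or 84.1%, against 42.2% of all genes tested. It lay within 1.2-fold for 29 of them and within 1.5-fold for 42. The exceptions at 1.5-fold were Psmd9 and Psme3, the most variable of the 44. Most of these genes have bright probes. Among the 1857 other genes between the quartiles of their mean level, the median size was 0.068, 70.7% had an interval within 1.25-fold, 10.1% had an unadjusted p below 0.05 and 2.15% were called, so that part of the gap to all genes goes with the level of the probes.

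**Figure D1:**
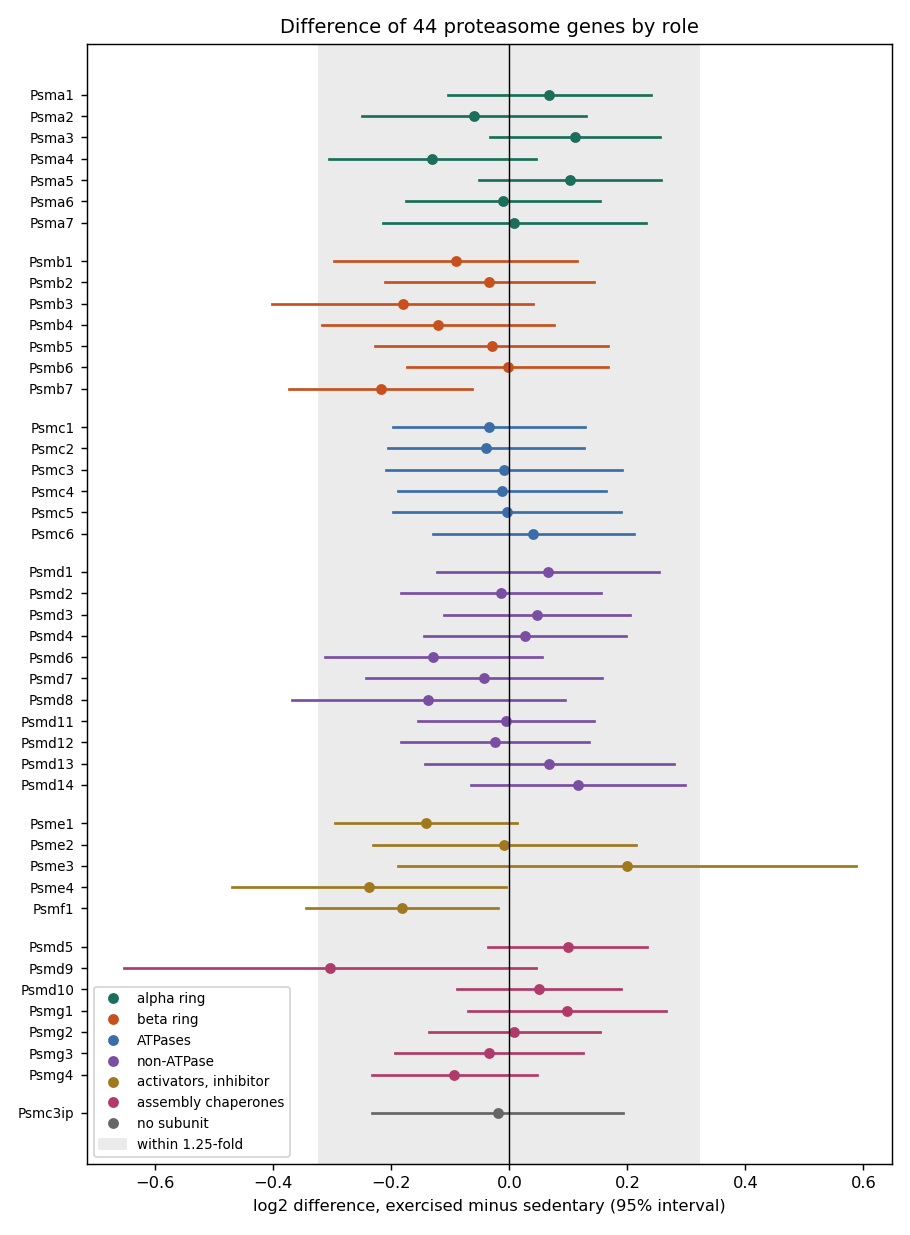
Log2 difference of each of the 44 tested proteasome genes, exercised minus sedentary, ordered by role down the page. Points are the differences, bars the 95% intervals from limma over 6 exercised and 6 sedentary mice, and the grey band spans 1.25-fold in either direction. The intervals of Psmb7, Psmf1 and Psme4 leave out 0, all on the lower side, and no gene passed after adjustment over all genes.

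**Figure D2:**
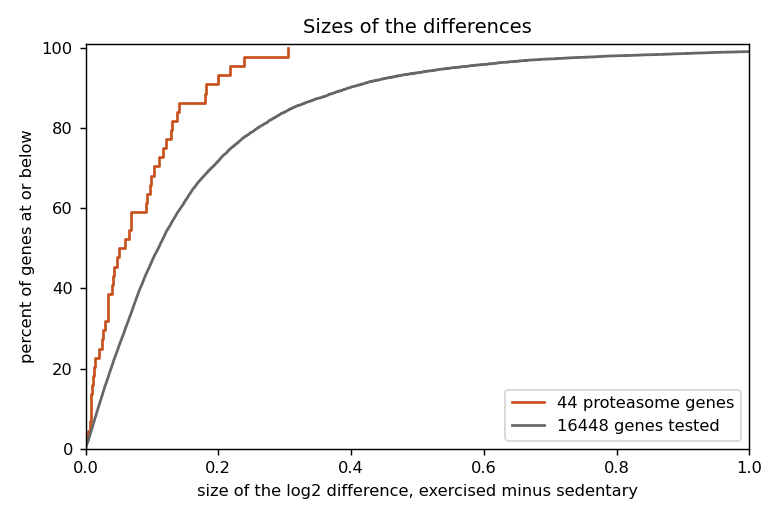
Percent of genes whose log2 difference is at or below a given size, for the 44 proteasome genes and for the 16448 genes tested. The horizontal axis ends at 1, and the curve of the proteasome genes ends at 0.30, the size for Psmd9.

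The values rest on the 60-base probes of the array. Probes of 5 genes are printed here: the catalytic subunits Psmb7 and Psmb5, the inhibitor Psmf1, and Psmd9 and Psme4, whose probes differed. Each is given 5′ to 3′ in lower case as the scanner file lists it, and positions are those of the array's annotation on build mm9. The Psmb7 probe spans chr2:38468966-38489385 on the minus strand and that of Psmb5 chr14:55233161-55233220 on the minus strand. The Psmf1 probes lie at chr2:151555353-151555412 and chr2:151542820-151542879, both on the minus strand. The Psmd9 probe spans chr5:123689746-123691886 on the plus strand. The 2 printed Psme4 probes span chr11:30721054-30723098 and chr11:30776868-30778426 on the plus strand, and are called upstream and downstream by their order. Both lie upstream of the brightest Psme4 probe, at chr11:30780168-30780227, which gave the value used for the gene and is not printed. Where the span exceeds 60 bases the probe crosses at least one intron on that annotation.
Psmb7: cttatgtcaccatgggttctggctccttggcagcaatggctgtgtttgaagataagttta
Psmb5: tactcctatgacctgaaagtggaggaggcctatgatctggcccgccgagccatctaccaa
Psmf1, first probe: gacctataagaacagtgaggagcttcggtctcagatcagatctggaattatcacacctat
Psmf1, second probe: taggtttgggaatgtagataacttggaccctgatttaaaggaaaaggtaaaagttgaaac
Psmd9: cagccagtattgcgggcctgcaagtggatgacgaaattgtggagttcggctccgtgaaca
Psme4, upstream probe: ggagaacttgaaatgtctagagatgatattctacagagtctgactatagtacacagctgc
Psme4, downstream probe: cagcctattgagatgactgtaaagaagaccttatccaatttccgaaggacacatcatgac

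Among the beta subunits, 0 of 7 tested genes passed the test. All 7 had a difference below 0, with a median of -0.091, where 58.0% of all genes were below 0. With the slides as blocks 4 of the 7 were below 0 and Psmb2, Psmb5 and Psmb6 above, and Psmb6 was also above 0 with quantile normalization, with the title sets as blocks and with array weights. Psmb7 encodes the subunit with trypsin-like activity. Its level on the 6 exercised arrays was 4.92 at the lowest, 5.14 at the median and 5.19 at the highest, against 5.19, 5.33 and 5.50 on the sedentary arrays. Both exercised s2m4 and sedentary s2m5 stand at 5.19, and this was the only overlap between the groups. On the authors' deposited values the groups of Psmb7 did not overlap. The log2 difference was -0.22 ± 0.071 (SE, n = 6 and 6), a fold of 0.86 with a 95% interval of 0.772 to 0.957. The two-sided exact permutation test of Psmb7 alone gave p = 0.00433, where 0.00216 is the smallest it can give with 6 against 6. Adjusted over the proteasome genes named by rule (Benjamini-Hochberg), this exact permutation p was 0.0606, and limma gave an adjusted p of 0.129. The rule picked those genes by their values in these data, so the adjusted exact permutation p does not cover every proteasome gene tested. A fit that also took the slides into account gave -0.21 (adjusted p = 0.246), and within slides 1, 2 and 3 it was -0.11, -0.14 and -0.33. The probe printed above is the only one for Psmb7.

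The other 2 catalytic subunits of the beta ring lay close to 0. Psmb5, which encodes the chymotrypsin-like subunit targeted by bortezomib, had 4.96, 5.22 and 5.57 as lowest, median and highest level on exercised arrays, against 5.20, 5.27 and 5.37 on sedentary arrays. The exercised values enclosed all the sedentary ones, and the log2 difference was -0.030 ± 0.091. Psmb6, which encodes the caspase-like subunit, had 5.99, 6.18 and 6.38 in exercised and 6.07, 6.18 and 6.30 in sedentary muscle, with a log2 difference of -0.0029 ± 0.078. Of the subunits without activity, Psmb3 had the largest difference (-0.18 ± 0.10, adjusted p = 0.43), followed by Psmb4 (-0.12) and Psmb1 (-0.091), and Psmb2 was at -0.034. Whether the difference of Psmb7 itself differs from that of the other beta subunits was not tested.

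The 7 tested alpha subunits, which form the outer rings, had a median log2 difference of 0.0086, with 4 above 0 and 3 below. Psma4 had the largest size, with levels of 3.16, 3.38 and 3.55 on exercised arrays against 3.34, 3.48 and 3.62 on sedentary arrays. Its log2 difference was -0.13 ± 0.081 (adjusted p = 0.487), and its other tested probe gave -0.086. Psma7 had the smallest size, 0.0086 ± 0.10, with 5.45 to 5.95 in exercised and 5.47 to 5.95 in sedentary muscle. Psma3 and Psma5 were at 0.11 and 0.10, with adjusted p of 0.464 and 0.542. A further probe for Psma3, annotated to another transcript and above background on 4 of 6 exercised and 4 of 6 sedentary arrays, gave 0.70 with a 95% interval from -0.59 to 1.99, which is too wide to place it.

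The ATPases, which unfold substrates and thread them into the core, were the most even group on the brightest probe of each gene. All 6 had log2 differences between -0.040 (Psmc2) and 0.041 (Psmc6), and the median was -0.011. Psmc6 had levels of 5.14, 5.50 and 5.58 in exercised against 5.32, 5.40 and 5.52 in sedentary muscle, and its 95% interval ran from 0.914-fold to 1.16-fold. Psmc5 had 3.96, 4.13 and 4.39 in exercised against 3.94, 4.20 and 4.26 in sedentary muscle, a log2 difference of -0.0041 ± 0.089. Its other tested probe gave 0.093 and that of Psmc4 -0.053, both outside the range above, while that of Psmc6 gave -0.0012. With the slides as blocks Psmc5 was at 0.073, and within slides 1, 2 and 3 it was at -0.038, -0.14 and 0.31. For these ATPases the widest interval of the log2 difference was that of Psmc3, from -0.21 to 0.19.

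The 11 other subunits of the regulatory particle had a median log2 difference of -0.0062, with 5 above 0 and 6 below. Psmd14, the deubiquitinase that removes the chain from the substrate, had levels of 4.04, 4.33 and 4.45 in exercised and 4.08, 4.17 and 4.37 in sedentary muscle. Its difference was 0.12 ± 0.084 with an adjusted p of 0.56, and its other tested probe gave 0.14. Psmd8, a subunit of the lid, had the largest size at -0.14 ± 0.11, with 3.70, 4.06 and 4.27 in exercised and 4.03, 4.10 and 4.48 in sedentary muscle. Psmd11, the lid subunit with the smallest size (-0.0062 ± 0.069), had 5.53, 5.76 and 5.90 in exercised and 5.65, 5.75 and 5.84 in sedentary muscle. The scaffold subunits Psmd1 and Psmd2 were at 0.066 and -0.014, and the ubiquitin receptor Psmd4 at 0.027. Psmd3, Psmd6, Psmd7, Psmd12 and Psmd13, also of the lid, lay between -0.13 and 0.068.

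The activators and the inhibitor were the group with the lowest median, -0.14 over 5 genes, and held 2 of the 3 genes at an unadjusted p below 0.05. Psme4 encodes PA200, a nuclear activator that binds the end of the core. Its level was 6.80, 7.13 and 7.43 on exercised arrays and 7.25, 7.30 and 7.57 on sedentary arrays, and 4 of the 6 exercised values lay below all sedentary ones. The log2 difference was -0.24 ± 0.11 (fold 0.848, 95% interval 0.722 to 0.996, adjusted p = 0.292, exact permutation p = 0.0541 for this gene alone). Adjusted over the proteasome genes named by rule, with the limit given for Psmb7, the exact permutation p of Psme4 was 0.253. Its 3 tested probes did not share a sign. The brightest, at chr11:30780168-30780227, gave the value above, while the upstream probe printed above gave 0.10 ± 0.14 and the downstream one -0.081 ± 0.085. Without exercised s2m3 the difference was -0.17, and averaging the 3 probes gave -0.073 with an adjusted p of 0.776. With the slides as blocks the difference of Psme4 was -0.16, and within slides 1, 2 and 3 it was -0.17, -0.35 and -0.018.

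Psmf1 encodes PI31, which inhibits the core particle in vitro. Its level was -0.71, -0.54 and -0.29 on exercised arrays and -0.45, -0.34 and -0.21 on sedentary arrays, so that 5 of the 6 exercised values lay below all sedentary ones. The log2 difference was -0.18 ± 0.075 (fold 0.882, 95% interval 0.788 to 0.987, adjusted p = 0.241, exact permutation p = 0.0281 for this gene alone). Adjusted over the proteasome genes named by rule, again with that limit, the exact permutation p of Psmf1 was 0.197. The second printed probe gave -0.080 ± 0.060. Within slides 1 and 2 the difference was -0.21 and -0.30, and within slide 3 it was 0.0046.

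The remaining activators are the PA28 family. Psme1 and Psme2, the interferon-inducible pair, were at -0.14 ± 0.071 (adjusted p = 0.361) and -0.0088 ± 0.10. Psme1 had 3.97, 4.09 and 4.28 in exercised against 4.13, 4.23 and 4.42 in sedentary muscle, which overlap. Psme3, the nuclear member, had the highest difference of all 44 genes and also one of the widest intervals. Its levels were 5.92, 6.42 and 6.88 in exercised and 5.83, 6.20 and 6.82 in sedentary muscle, a log2 difference of 0.20 ± 0.18 (adjusted p = 0.656). The highest exercised value and the highest sedentary value of Psme3 both came from slide 2.

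**Figure D3:**
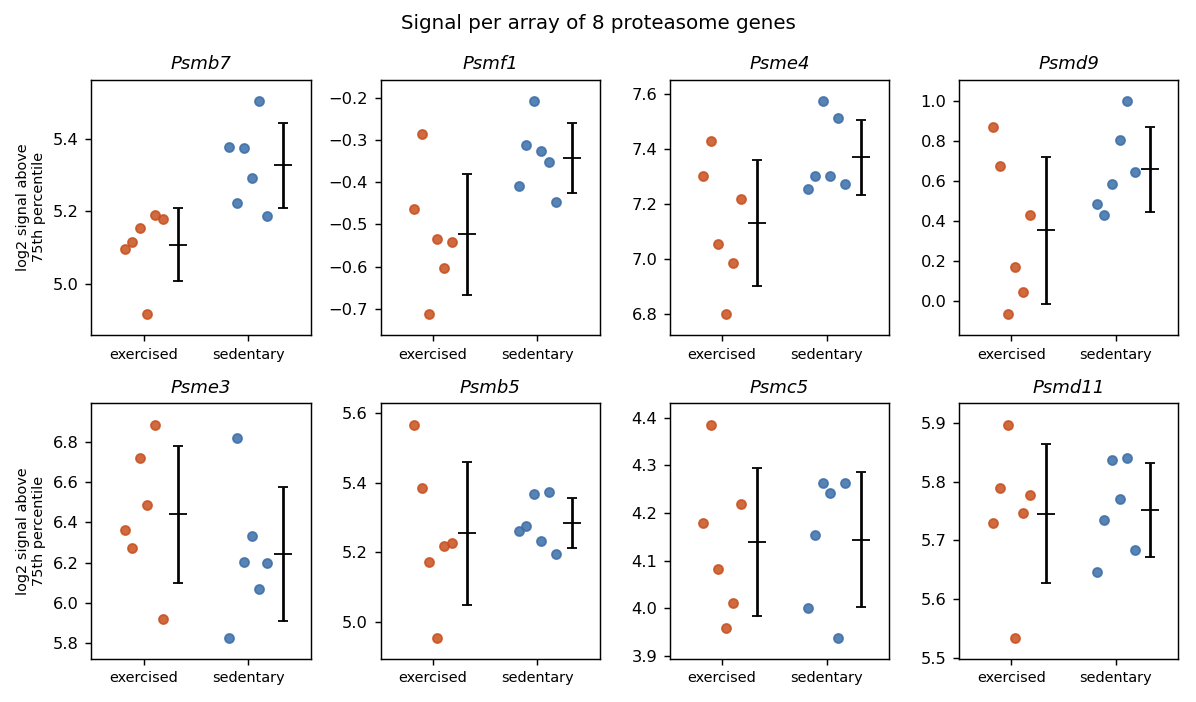
Log2 signal above the array's 75th percentile for 8 proteasome genes, each dot 1 mouse, exercised left of sedentary. Black marks are the mean and SD of 6 mice, and each panel has its own vertical range. The groups of Psmb7 overlap at 5.19 only, those of Psmb5, Psmc5 and Psmd11 overlap widely, and Psmd9 and Psme3 have the widest spread.

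The assembly chaperones had a median log2 difference of 0.0086 over 7 genes, with 4 above 0 and 3 below. Psmd9, Psmd5 and Psmd10 help to build the ATPase ring, and Psmg1 to Psmg4 the core. Psmd9 had the lowest difference of all 44 genes, with levels of -0.06, 0.30 and 0.87 on exercised arrays and 0.43, 0.62 and 1.00 on sedentary arrays. Its exercised values comprised 4 at 0.43 or below, among them all 3 from slide 2, and 2 at 0.68 and 0.87, both from slide 3. The same 2 were the exercised mice of title set 1, and the 4 were those of set 2. The exercised minus sedentary difference of Psmd9 in set 2, minus that in set 1, was -0.94. As an interaction in limma this had an unadjusted p of 0.000768 and an adjusted p of 0.52. The log2 difference was -0.30 ± 0.16 (adjusted p = 0.387), and -0.18 once the slides entered the fit. The other Psmd9 probe, at chr5:123698524-123698583, gave 0.0056 ± 0.070. Psmd5, Psmg1 and Psmd10 were at 0.099, 0.098 and 0.050. Psmg4 and Psmg3 were at -0.093 and -0.034, and Psmg2 was at 0.0086 ± 0.067 with 2.72 to 3.02 in exercised and 2.79 to 2.96 in sedentary muscle.

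In all, 16 of the 44 genes had more than 1 tested probe, and in 7 of them the probes lay on both sides of 0. Besides Psme4 and Psmd9 these were Psmc5, Psmc6, Psmd2, Psmd7 and Psmd12, all with differences between -0.076 and 0.093. Psmc3ip, the gene that only shares the name pattern, was at -0.020 ± 0.098. The difference between exercised and sedentary mice was also compared between the title sets, as an interaction in limma. This interaction was called for 0 of the 44 genes and 0 of all genes. An unadjusted p below 0.05 was found for 2 of the 44, Psmd9 and Psmb6, and for 1441 of all genes.

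The proteasome genes varied together from mouse to mouse. Over the 12 arrays, with each group's mean removed, the mean correlation over the 946 pairs of proteasome genes was 0.359. It was 0.0123 over all genes tested and 0.178 over the 1879 genes that lie between the quartiles of the proteasome genes' mean level. These values describe arrays that share labelling and scaling for all their genes, and genes are not independent replicates. Within the core particle the mean correlation was 0.509 over 14 genes, within the regulatory particle 0.460 over 17, and between the core and the regulatory particle 0.469. Among the 13 remaining genes it was 0.113. Over the core and regulatory particles together it was 0.474, and 0.319 with the slide means removed too. Removing the slide means left 0.247 for the proteasome genes and 0.130 for the genes of like level.

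One array carried much of this shared variation. On exercised s2m3, 42 of the 44 genes lay below their 12-array mean, and 25 had their lowest value of all 12 arrays there. The mean deviation of the 44 genes was -0.194 on that array, while the other 5 exercised arrays ran from -0.045 to 0.112 and the sedentary arrays from -0.055 to 0.089. Genes of like level, with the proteasome genes left out, were also low on exercised s2m3, at -0.090 over 1857 genes. Without that array the mean pairwise correlation was 0.203 for the proteasome genes and 0.144 for the genes of like level, and 0.273 for the core and regulatory particles together. Averaged over mice, the deviation of the 44 genes was -0.014 ± 0.107 in exercised and 0.014 ± 0.049 in sedentary muscle (SD, n = 6 each). The SD between exercised mice exceeded that between sedentary mice in 33 of the 44 genes, against 55.8% of all genes, and in 23 of the 44 without exercised s2m3, against 52.2%. By slide, the mean deviation was 0.0092 in 1 exercised and 0.035 in 3 sedentary arrays on slide 1, -0.092 in 3 exercised arrays and -0.055 in 1 sedentary array on slide 2, and 0.091 in 2 exercised and 0.018 in 2 sedentary arrays on slide 3. It was lowest on slide 2 in both groups, and highest on slide 3 in exercised and on slide 1 in sedentary mice. The part of the slide in this variation was not tested.

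**Figure D4:**
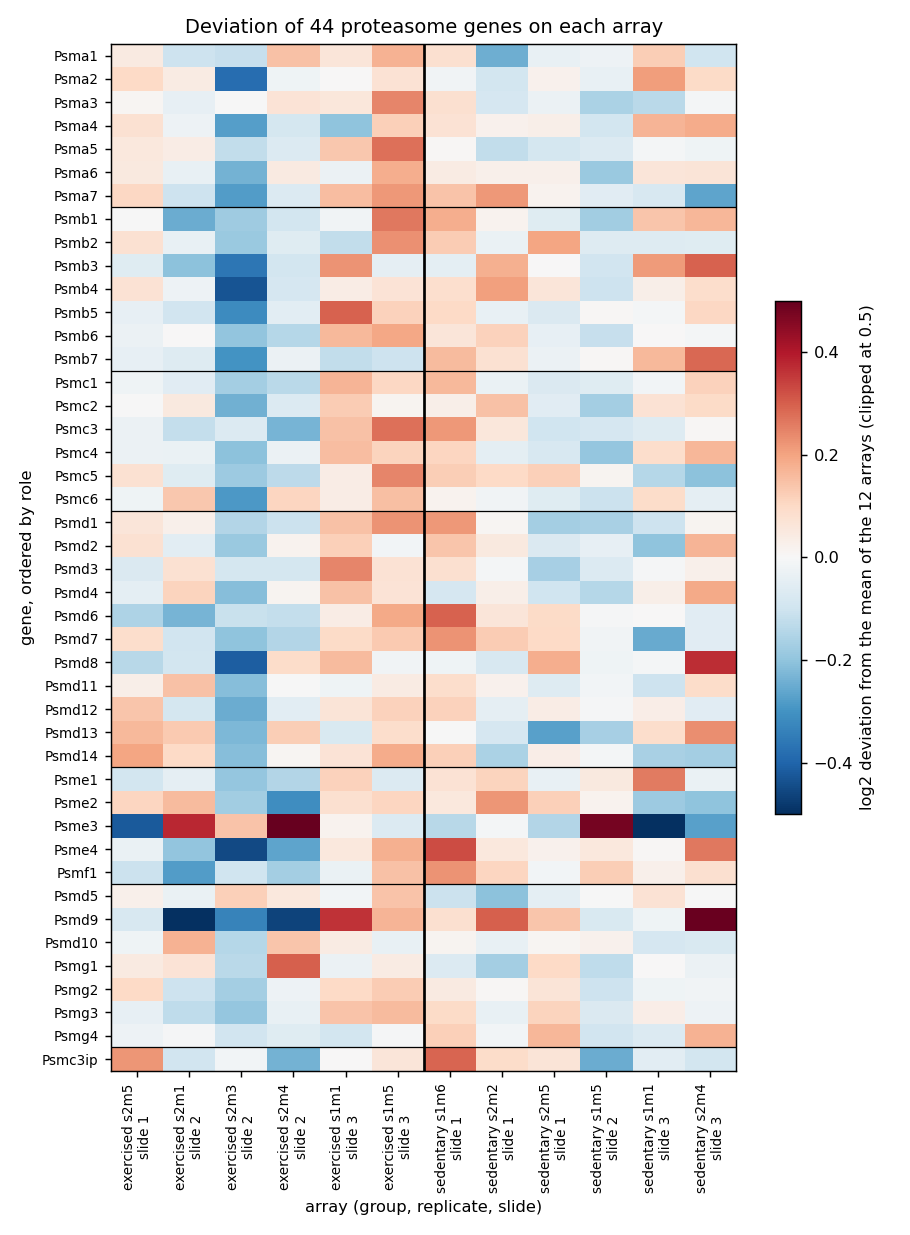
Log2 deviation of each of the 44 proteasome genes, by role, from its mean over the 12 arrays. Columns are arrays, 6 exercised left of 6 sedentary, ordered by slide within a group, and colours stop at 0.5 in either direction. The column of exercised s2m3 is below 0 in 42 genes, and the row of Psme3 runs against most others.

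The genes did not all take part equally. Psme4 followed the mean of the others most closely (r = 0.935 over 12 arrays, group means removed), then Psmg2 (0.862), the catalytic subunit Psmb6 (0.859) and the ATPase Psmc1 (0.854). At the other end Psme3 had r = -0.452 and the chaperone Psmd5 r = -0.225, and Psmg1 and Psmd10 had 0.147 and 0.176. The closest pair was Psmd13, of the lid, with Psmb7 (r = 0.967) and the most opposed was Psme3 with Psmc3ip (r = -0.647). For the 2 genes with the largest differences, the genes most alike over all 12 arrays, group means included, were also listed. For Psmd9 they were Anapc2 (r = 0.944), Ehbp1l1, Hes6, Dda1 and Csnk1g2, and for Psme4 they were Llph (r = 0.943), Ube2s, Ift27, Slc35c2 and Dcaf7. None of these 10 genes passed the test between the groups, with adjusted p between 0.292 and 0.517.

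Around the proteasome, 102 genes in 6 lists of related functions were looked up, and 99 could be tested. Of these 4 were higher and 1 was lower in exercised muscle, where 1.82% of all genes were higher and 1.85% lower, with a median log2 difference of -0.023. Of the 4, 3 came from a list drawn up around NRF1 and its processing, which also holds the small Maf genes and Nfe2l2. There 14 genes were tested, 3 were higher and 0 lower, and the median was 0.018. The list was drawn up with earlier results of these data known, so this count is a description only. Maff, a small Maf partner of NRF1 and NRF2, had levels of 0.80, 1.22 and 2.14 on exercised arrays against -1.25, -0.79 and -0.33 on sedentary arrays. The groups did not overlap, and Maff was 4.30-fold higher (95% interval 3.12 to 5.93, adjusted p = 0.000225 in limma). Mafk, another small Maf gene, was 1.49-fold higher (1.23 to 1.80, adjusted p = 0.0266), with 0.37, 0.96 and 1.03 in exercised against -0.0085, 0.22 and 0.41 in sedentary muscle. Nfe2l2, which encodes NRF2, the regulator of the oxidative stress response, was 1.46-fold higher (1.20 to 1.77, adjusted p = 0.0396), with 3.08, 3.36 and 3.85 against 2.63, 2.90 and 3.08.

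Nfe2l1 itself did not pass, and its log2 difference was -0.093 ± 0.081 (adjusted p = 0.642). Its levels were 6.34, 6.60 and 6.80 in exercised and 6.56, 6.72 and 6.76 in sedentary muscle. Pomp, the chaperone that matures the core, was at -0.0014 ± 0.081, with 5.83 to 6.22 in exercised and 5.92 to 6.18 in sedentary muscle. Exercised s2m4 is not among these values, because the Pomp probe was outlier-marked there. With outlier marks kept the log2 difference of Pomp was 0.21 (limma, adjusted p = 0.683), and on the deposited values it was also 0.21. Of the 20 tested accessory factors and ubiquitin receptors, Pomp among them, 0 were higher and 0 lower. The one with the smallest p was Ube3c, a ligase on the proteasome that extends ubiquitin chains, at -0.15 ± 0.055 (adjusted p = 0.19).

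Of the muscle ubiquitin ligases, 1 of 18 was higher and 0 were lower. Among all genes 1.82% were higher, and 1 gene of 18 is too few to set apart from that share. Trim63, which encodes MuRF1, had 6.19, 6.31 and 6.70 on exercised arrays against 5.66, 5.97 and 6.24 on sedentary arrays, and was 1.36-fold higher (1.15 to 1.61, adjusted p = 0.0473). Fbxo32, which encodes atrogin-1, had 4.42, 4.90 and 5.23 in exercised against 4.12, 4.65 and 5.43 in sedentary muscle, a log2 difference of 0.17 ± 0.20 (adjusted p = 0.742). Of the 32 ubiquitin-conjugating enzymes 0 were higher and 1 was lower. This is near the 1.85% lower among all genes. The gene was Ube2d1, which works with many ligases, at 0.91, 1.03 and 1.19 in exercised and 1.28, 1.33 and 1.68 in sedentary muscle, without overlap, a fold of 0.771 (0.675 to 0.881, adjusted p = 0.0358). Ubiquitin and its activating enzymes held 0 higher and 0 lower genes of 12. The polyubiquitin gene Ubb was at -0.086 ± 0.13, and Uba7, which activates ISG15, was at -0.55 ± 0.14 (adjusted p = 0.0539).

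Apart from that of Maff, these calls lay near the threshold. When each array was left out in turn, Maff stayed called in 12 of 12 fits, Mafk in 4, Nfe2l2 in 3, Trim63 in 2 and Ube2d1 in 4. The adjusted p then ran up to 0.0616 for Mafk, 0.091 for Nfe2l2, 0.10 for Trim63 and 0.0818 for Ube2d1, and each kept its direction in all 12 fits. Mafk stayed called without exercised s1m1, exercised s2m4, sedentary s1m6 or sedentary s2m4, and Nfe2l2 without exercised s1m1, exercised s2m5 or sedentary s2m5. Trim63 stayed called without exercised s2m3 or sedentary s1m6, and Ube2d1 without exercised s2m5, sedentary s1m1, sedentary s1m5 or sedentary s2m5. Leaving out any array not named for a gene ended its call. With the slides as blocks, limma's adjusted p was 0.00258 for Maff, 0.0746 for Mafk, 0.0962 for Nfe2l2, 0.125 for Trim63 and 0.107 for Ube2d1. Within slide 1 the log2 difference of Nfe2l2 was 0.035, against 0.76 and 0.75 within slides 2 and 3. The value of slide 1 rests on 1 exercised mouse and that of slide 2 on 1 sedentary mouse.

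**Figure D5:**
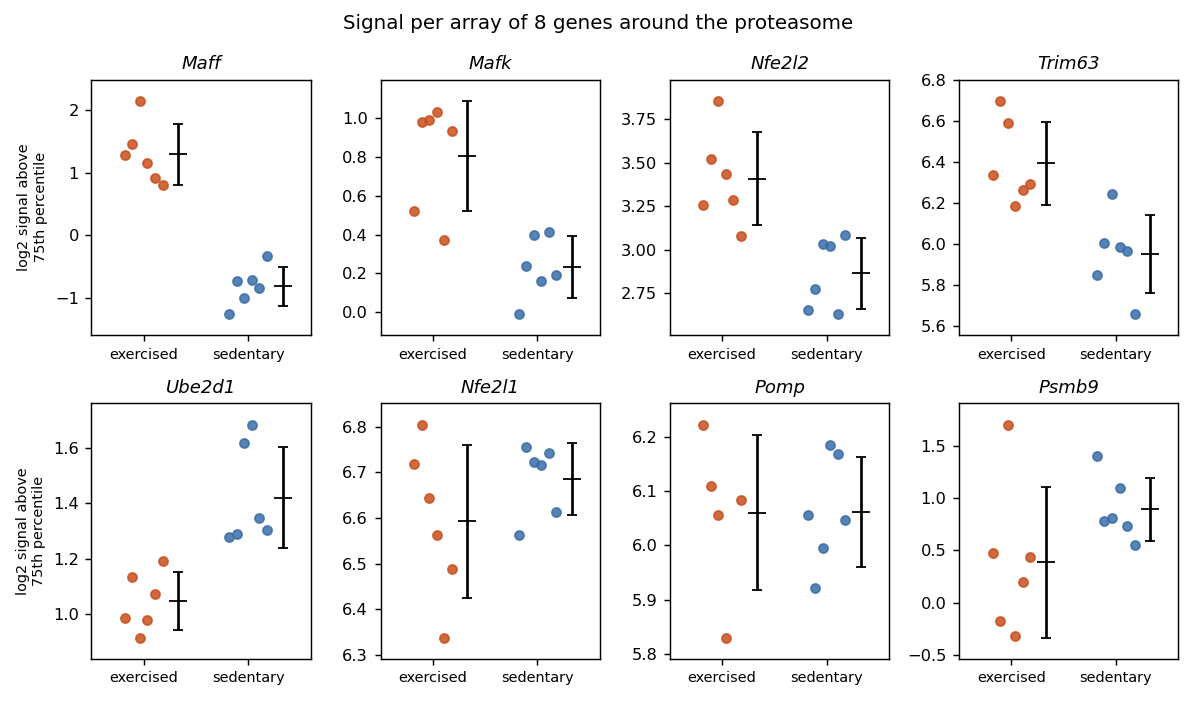
Log2 signal above the array's 75th percentile for 8 genes around the proteasome, each dot 1 mouse, exercised left of sedentary. Black marks are the mean and SD of 6 mice, except that exercised s2m4 has no value for Pomp. Each panel has its own vertical range. The groups of Maff and Ube2d1 do not overlap, and those of Nfe2l1, Pomp and Psmb9 do.

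The immunoproteasome subunits, which replace the catalytic beta subunits in immune cells and under interferon, did not pass either. Psmb9 had -0.32, 0.32 and 1.70 in exercised against 0.55, 0.80 and 1.40 in sedentary muscle, a log2 difference of -0.51 ± 0.29 (adjusted p = 0.434). Without exercised s2m1, which holds the highest value, it reached an adjusted p of 0.0478 at -0.77. Psmb8 was at -0.20 ± 0.27 and Psmb10 at -0.082 ± 0.094. Exercised mice spread more widely than sedentary mice in Psmb8 (SD 0.66 and 0.29) and Psmb9 (0.72 and 0.30). Of the 10 tested markers of macrophages and lymphocytes 0 were called, and their summed level, on a linear scale relative to the 75th percentile, was 69.9 to 100.4 in exercised and 50.1 to 122.8 in sedentary muscle. Cd3g and Cd8a were not tested, being above background on too few arrays.

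Other cell types were followed by their marker lists. The muscle fibre markers had a median log2 difference of -0.12 with 0 of 15 called, and their sum was 11742 to 14258 in exercised and 13306 to 15181 in sedentary muscle. The 8 tendon markers had a median of 0.92 with 0 called, and their sum was 63.7 to 162 in exercised and 27.9 to 83.2 in sedentary muscle. The 8 tested adipocyte markers had a median of 0.39 with 0 called, the 8 endothelial markers -0.16 with 1 called, and the 4 tested red cell markers 0.30 with 0 called. Their part in the levels of the proteasome genes was not tested.

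Because small Maf proteins bind antioxidant response elements with their partners, the core of that element, TGACNNNGC, was searched on both strands in the RefSeq promoter windows on build GRCm38.p6, which run from 250 bases before to 50 bases after each gene's start. Of the 46 genes 38 had a window, and 6 of the windows, or 15.8%, held a match. Among genes tested on the array 16.8% of 10468 windows held one, and among all genes 14.0% of 27025. CCAAT, the core of a box bound by NF-Y, was found in 36.8% of the proteasome windows and in 42.4% of those of genes tested. Both shares lay near those of other genes. The matches in 4 genes are printed on the strand of the gene, with the match in capitals, because these genes include both with the largest differences and a catalytic subunit. That of Psmd9 lies on the strand of the gene at chr5:123228144-123228182, and that of Psmb5 on the strand of the gene at chr14:54618019-54618057. Those of Psme4, at chr11:30771753-30771791, and of Psmc6, at chr14:45329582-45329620, read as the element on the opposite strand. The match starts 31 bases before the gene's start in Psmd9, 47 in Psmb5, 7 in Psme4 and 227 in Psmc6. Psmb6 and Psmd12 held the other 2 matches.
Psmd9: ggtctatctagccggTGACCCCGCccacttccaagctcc
Psmb5: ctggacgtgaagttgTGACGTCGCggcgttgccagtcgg
Psme4: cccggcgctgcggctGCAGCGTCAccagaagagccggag
Psmc6: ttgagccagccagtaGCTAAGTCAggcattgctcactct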

How the data were processed

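Levels of RNA were measured on 12 one-colour Agilent arrays, 1 per mouse. Per the file headers, the authors scanned and extracted the arrays with Agilent Feature Extraction 10.5.1.1 (the submitters' processing notes name 9.1), and the deposited processed signal is an intensity on a linear scale, background-subtracted within each array. The deposited table of values, also intensity, lay within 0.1% of it for 100% of single-spot values and served as an alternative. Outlier-marked and control spots were left out, spots of a probe averaged, and log2 values set against each array's 75th percentile. Probes were named through RefSeq accessions where possible (26876 of 41174). Those well above background on at least 6 arrays were kept (22919 of 41174), and each gene was given its brightest probe. Exercised and sedentary mice were compared with limma 3.58.1 (R 4.3.3, version 1.17.8 of data.table) over 16448 genes, without a block, at a Benjamini-Hochberg adjusted p below 0.05. No proteasome probe was saturated (0) or missing (0). Single genes also had an exact permutation test over the 924 assignments of the arrays. Its p was also adjusted (Benjamini-Hochberg) over the proteasome genes named by the rule given below. That rule used these same data, so the adjustment does not cover every proteasome gene tested. The model was tested on simulated data.

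The members and the lists were chosen with earlier results of these data known. Genes named with their values were the proteasome genes with the largest and smallest difference in each role and the 3 smallest p, called genes of each related list or else its smallest p, and Nfe2l1, Pomp, Ubb, Fbxo32, Trim63, Psmb8, Psmb9 and Psmb10. A further gene named by the rule is not reported here. Other proteasome genes, Psmb5, Psme1, Psme3 and Psmd14 among them, were chosen for a full account after their values were seen. Alternatives were other scalings, background corrections, probe filters and summaries, the deposited table, slide and title set as blocks, other variance models, fits within a slide, and each array left out. Promoter windows are from RefSeq. Windows of Psma8, Psmb1, Psmb2, Psmb7, Psmc3, Psmd3, Psmd7 and Psmg2 were not used here. The labels do not say whether a shared set and animal number pairs mice of the groups, and the main fit used no pairing. The 4 correlations of same-numbered arrays, which cannot decide this, ran from -0.186 to 0.284. Exercised s2m5 was closest to sedentary s2m5, while exercised s1m1, s1m5 and s2m4 were closest to sedentary s2m2, s1m6 and s1m1.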

Additional observations from a re-analysis of the deposited data

Results flagged for a closer look

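In groups of 6 mice, the lowest or highest mouse was set against the range of its group (Dixon's test at 95%), over 120 groups of values for the 44 proteasome genes, the named genes around them and the mean deviation. Chance flags about 1 group in 20, and 4 were flagged. Exercised s2m3 was far below the other 5 exercised mice in 3 genes: Psma2, an alpha subunit, at 5.60 against 5.96 to 6.08, Psmb4, a beta subunit, at 5.83 against 6.18 to 6.33, and Psmb7 at 4.92 against 5.10 to 5.19. Sedentary s1m5 was far below the other 5 sedentary mice in Psma6, an alpha subunit, at 4.93 against 5.15 to 5.19.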

How the results depend on the processing

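No proteasome gene was called in either direction under any of the 31 alternatives, where the main count was 0 higher and 0 lower of 44. The other counts moved. All genes called numbered 604, and they numbered 317 with no filter on dim probes, 350 with slide as a block, 0, 8 and 0 within slides 1, 2 and 3, and 1011 at an adjusted p below 0.10. Genes of the related lists numbered 5, and 2 with median scaling, 1 with no filter on dim probes, 1 with slide as a block, and 0 in fits on a single slide. Proteasome genes at an unadjusted p below 0.05 numbered 3, and 1 with median scaling, 1 with slide as a block, and 0 within slide 1 and within slide 2. Proteasome genes whose groups did not overlap numbered 0, and 1 with the deposited table and 1 with outlier marks kept, Psmb7 in both. The median log2 difference of the proteasome genes was 0.032 with slide as a block and 0.077 within slide 3, where that of Psmf1 was 0.0046. Leaving out each array in turn gave 418 to 571 called genes in all, 1 to 4 in the related lists, 1 to 6 proteasome genes at an unadjusted p below 0.05 (6 without exercised s1m1, 5 without exercised s1m5, and 1 without exercised s2m1 or s2m4 or sedentary s1m5, s1m6 or s2m2, Psmb7 each time), 0 to 1 without overlap (Psme1 without exercised s1m1, Psmf1 without exercised s1m5, Psmb7 without exercised s2m4 or sedentary s2m5), and a median of -0.047 to 0.024. Normexp background correction fitted on all spots gave 4 arrays a median log2 signal of 9.54 to 11.16, against 6.20 to 6.38 on the other 8, and called 0 genes. There 0 related genes and 0 proteasome genes at an unadjusted p below 0.05 were found, the proteasome median was 0.25, Psmb7 was at 0.14 and Psme4 at 0.038. A normexp fit with the background of negative control spots, chosen after seeing the data, called 476 genes, gave a median of 0.0076 and kept Psmb7, Psme4 and Psmf1 as the 3 at an unadjusted p below 0.05.

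Whether the set and animal numbers that occur in both groups pair the mice is not stated, and their correlations cannot decide it. A fit on those arrays with a replicate block called 29 genes, with 0 in the related lists, 0 proteasome genes at an unadjusted p below 0.05 and 1 without overlap, Psma3. The median was 0.061 with and without the block. The same arrays without the block gave 130, 1, 0 and 1.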
